A study of Mus musculus with 11 samples.

Results

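The lysosomal proteases, hydrolases and membrane proteins of splenic dendritic cells were examined as a list of 31 genes, among 22180 genes measured on the arrays. The list was taken by name, with earlier results of these data known. For each gene the probeset naming that gene alone was used, or the brightest of them where there were several. All 31 genes were measured. The 5 exposed arrays came from dendritic cells of C57BL/6 mice that had received Eµ-Myc lymphoma cells, which are B cell lymphoma cells driven by a Myc transgene, and the 6 naive arrays came from dendritic cells of C57BL/6 mice without lymphoma. All cells were sorted from spleen as CD11c- and MHC class II-positive, with a stated purity above 95%, and the lymphoma made up on average 10 to 36% of splenic lymphocytes. The labels give neither the animals' age nor whether each array holds the cells of its own mouse, so p-values measure the spread between these 11 arrays, which may be partly technical. Each value is a log2 expression level, so a difference of 1 is a doubling, and an array is named by its group and the number in its title.

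Lysosomes are acidic compartments in which proteins, sugars, lipids and nucleic acids are broken down. In dendritic cells they also cut engulfed antigens and the invariant chain, which must be removed before MHC class II can bind peptide, and dendritic cells are known for holding this digestion in check. Many lysosomal genes share an E-box in their promoters to which the transcription factors Tfeb, Tfe3, Mitf and Tfec can bind.

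Promoter windows are shown for the 3 genes with the largest differences, Ctsd, Acp2 and Lamp1, and for Gaa, whose exposed arrays all lay above the naive ones. Each runs 5′ to 3′ on the gene's own strand from 250 bases before the start site to 50 bases after it, taken from RefSeq on GRCm38.p6, and capitals mark the palindromic E-box CACGTG, which reads the same on both strands.
Lamp1 (chr8:13158911-13159210, plus strand): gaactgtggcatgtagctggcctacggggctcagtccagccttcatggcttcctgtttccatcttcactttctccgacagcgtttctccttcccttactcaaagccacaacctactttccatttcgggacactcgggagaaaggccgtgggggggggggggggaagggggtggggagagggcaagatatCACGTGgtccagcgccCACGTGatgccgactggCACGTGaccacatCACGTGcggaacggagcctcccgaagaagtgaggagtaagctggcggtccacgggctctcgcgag
Ctsd (chr7:142387778-142388077, minus strand): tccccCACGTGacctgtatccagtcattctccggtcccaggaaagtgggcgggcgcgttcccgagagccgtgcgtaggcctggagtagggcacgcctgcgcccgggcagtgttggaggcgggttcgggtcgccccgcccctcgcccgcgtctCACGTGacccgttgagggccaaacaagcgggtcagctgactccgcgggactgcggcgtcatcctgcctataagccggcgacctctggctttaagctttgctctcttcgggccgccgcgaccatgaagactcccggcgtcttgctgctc
Acp2 (chr2:91202662-91202961, plus strand): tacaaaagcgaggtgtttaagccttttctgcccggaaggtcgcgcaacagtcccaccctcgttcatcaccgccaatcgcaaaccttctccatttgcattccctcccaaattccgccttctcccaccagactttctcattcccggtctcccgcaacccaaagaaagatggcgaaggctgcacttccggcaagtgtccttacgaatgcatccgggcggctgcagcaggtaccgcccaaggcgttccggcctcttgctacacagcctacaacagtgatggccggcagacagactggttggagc
Gaa (chr11:119267713-119268012, plus strand): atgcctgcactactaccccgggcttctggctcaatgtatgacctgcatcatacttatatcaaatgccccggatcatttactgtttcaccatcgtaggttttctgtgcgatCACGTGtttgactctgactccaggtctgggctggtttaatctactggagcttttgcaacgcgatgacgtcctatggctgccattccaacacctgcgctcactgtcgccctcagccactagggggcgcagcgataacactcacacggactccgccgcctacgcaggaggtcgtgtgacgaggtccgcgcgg

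The Lamp1 window held 4 E-boxes, the Ctsd window 2 and the Gaa window 1, and the Acp2 window held none. The exposed arrays of Scarb2 also all lay above the naive ones. Its window, which is not shown, held no E-box either. The same letters stood in windows of genes that hardly differed, of which Mcoln1, Ctsa and Gla are shown by the stretch around their matches.
Mcoln1 (chr8:3500436-3500491, plus strand): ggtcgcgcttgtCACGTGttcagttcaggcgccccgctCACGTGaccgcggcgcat
Ctsa (chr2:164833749-164833795, plus strand): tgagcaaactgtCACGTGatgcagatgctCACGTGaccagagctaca
Gla (chrX:134601182-134601244, minus strand): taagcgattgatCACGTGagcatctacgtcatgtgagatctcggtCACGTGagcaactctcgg

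RefSeq windows were given for 26 of the 31 genes, 29 windows in all. CACGTG occurred in 9 of these 29 windows, each of a different gene, against 2349 (7.15%) of all 32851 promoter windows of the same length. GTCACGTG, searched on both strands and always containing the shorter E-box, occurred in 7 windows (24.1%) against 2.25% of all windows. TTGCNNAA, a loose form of the core bound by C/EBP factors, which the study is about, was searched on both strands as well and occurred in 5 windows (17.2%) against 10.8%. The 9 genes with CACGTG had differences from -0.10 to 0.81 with a median of 0.21, and the 17 genes without it in the window had differences from -0.16 to 0.48 with a median of 0.07. The ranges overlapped over most of their length. These matches are letters in a window, and binding was not measured.

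**Figure D1:**
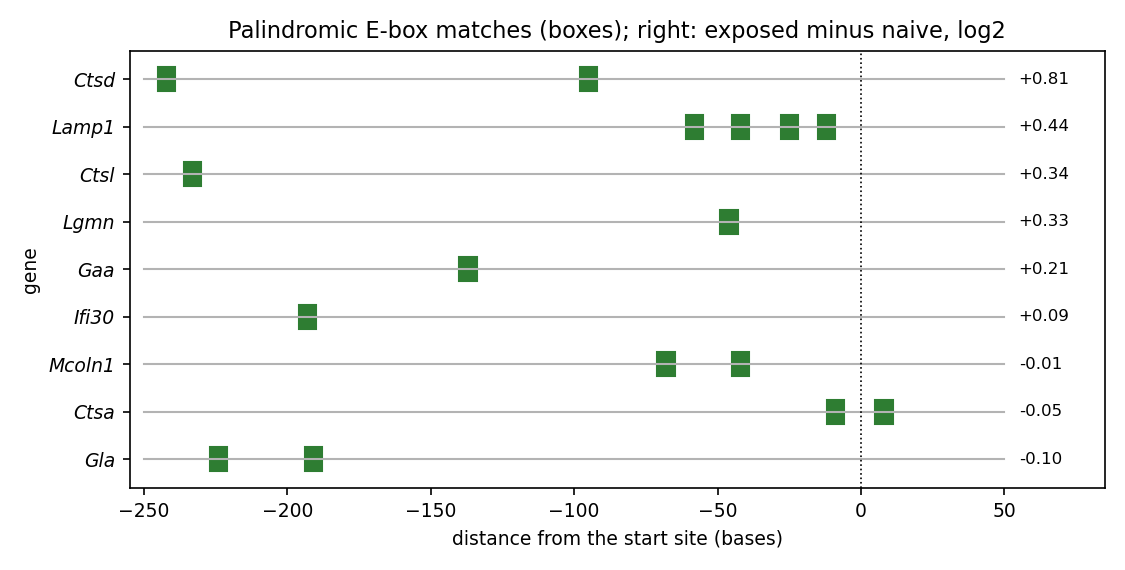
Positions of CACGTG (boxes) in the promoter windows of the 9 lysosomal genes that hold it, in bases from the start site (dotted line), with the log2 difference of exposed minus naive at the right. Lamp1 holds 4 matches, beginning at -61, -45, -28 and -15, and the 3 genes at the bottom hold 2 each with differences from -0.10 to -0.01.

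Lamp1 was the only gene of the list whose difference between exposed and naive cells passed the test (limma, with a threshold of 0.05 on p-values adjusted by Benjamini-Hochberg across every gene tested). That is 1 of 31 genes, or 3.23%, against 1.42% of all genes and 2.39% of the genes above a mark for dim signal, which is the 95th percentile of olfactory receptor genes at 5.60. Among all genes 0.879% rose. With 1 call the list's share is no result about the list. The differences nevertheless leaned upward: 24 of 31 were positive (77.4%), against 53.5% of all genes and 55.4% of the genes above the dim mark. The median difference was 0.09 for the list, 0.01 for all genes and 0.01 for the genes above the dim mark. For Lamp1, Scarb2 and Gaa, 3 of the 31 (9.68%), the lowest exposed array was still above the highest naive array. That held for 1.42% of all genes and 2.25% of those above the dim mark. In 0 of 31 genes did all exposed arrays lie below the naive ones, against 0.875% and 1.40%. At an unadjusted p under 0.05 there were 9 of the 31 genes (29.0%), against 12.2% of all genes and 17.2% of those above the dim mark. Of these, 8 were higher in exposed cells (25.8% of the 31), against 7.17% and 10.2%. The list's genes were measured on the same 11 arrays and moved together in them, so these counts are not independent. The list was also chosen with earlier results of these data known. These shares therefore describe it and are no test of a lean.

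**Figure D2:**
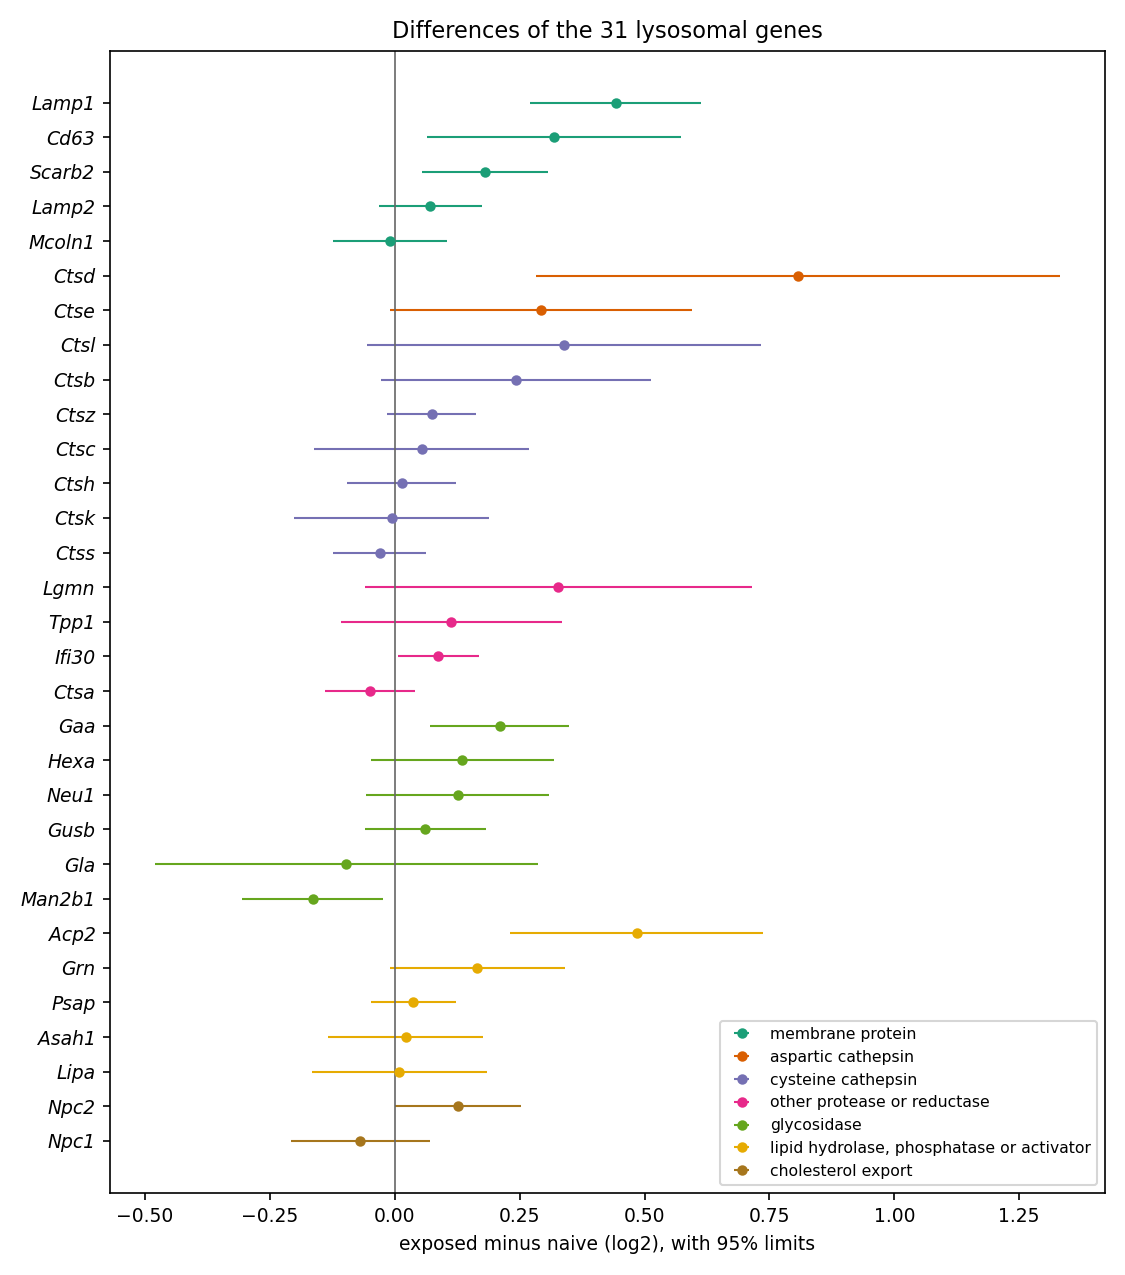
Difference of exposed minus naive (log2) with 95% limits for each of the 31 lysosomal genes, coloured by role. The differences run from -0.16 for Man2b1 to 0.81 for Ctsd, and the limits of Ctsd are among the widest.

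The membrane proteins were led by Lamp1, which encodes a heavily glycosylated protein lining the lysosomal membrane. Lamp1 was at 11.51, 11.33, 11.28 and 11.13 on exposed arrays 1 to 4 and at 11 on exposed array 6, against a lowest value of 10.72, a median of 10.76 and a highest of 10.93 on the naive arrays. The lowest exposed array lay just above the highest naive array, and exposed array 1 was the highest. Lamp1 averaged 11.25 ± 0.19 in exposed cells and 10.81 ± 0.09 in naive cells (SD, n = 5 and 6), a 1.36-fold rise (0.44 ± 0.08, SE; adjusted p = 0.0180). Without exposed array 2 the difference was 0.42 and no longer passed (adjusted p = 0.0577). It passed with each of the other 10 arrays left out.

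Scarb2 encodes LIMP-2, the receptor that carries glucocerebrosidase to lysosomes. It was at 9.63, 9.35, 9.41, 9.46 and 9.43 on exposed arrays 1, 2, 3, 4 and 6, against 9.16 to 9.35 with a median of 9.30 on naive arrays. The groups did not overlap, though exposed array 2 and the highest naive array were equal to 2 decimals, and the difference of 0.18 ± 0.06 did not pass (adjusted p = 0.185). Cd63, a tetraspanin of late endosomes and exosomes, was at 8.81, 8.53, 9.003, 8.47 and 8.47 on exposed arrays, against 7.97 to 8.61 with a median of 8.36 on naive arrays. Only exposed arrays 1 and 3 lay above all naive arrays, and its difference of 0.32 ± 0.12 did not pass (adjusted p = 0.264). Lamp2, the close relative of Lamp1, differed by 0.07 with 95% limits of -0.03 to 0.17, and Mcoln1, the calcium channel TRPML1 of the lysosomal membrane, by -0.01 with limits of -0.12 to 0.10.

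Ctsd had the largest difference of the 31 genes and did not pass. It encodes cathepsin D, an aspartic protease and a main endopeptidase of lysosomes. Ctsd was at 11.64, 10.85, 10.30, 10.22 and 10.00 on exposed arrays 1, 2, 3, 4 and 6, against 9.45 to 10.26 with a median of 9.76 on naive arrays. Exposed arrays 1 and 2 stood far above every naive array, array 3 stood just above them, and arrays 4 and 6 lay below naive array 2. Ctsd averaged 10.60 ± 0.66 in exposed cells and 9.79 ± 0.27 in naive cells, a difference of 0.81 ± 0.24 (SE; adjusted p = 0.145), or 1.75-fold. Its difference was 0.55 without exposed array 1 (adjusted p = 0.149). Ctse, the endosomal aspartic protease cathepsin E, was at 8.20, 7.75, 7.26, 8.02 and 7.55 on exposed arrays, against 7.29 to 7.67 with a median of 7.46 on naive arrays, and its difference of 0.29 ± 0.14 did not pass (adjusted p = 0.430). Exposed arrays 1, 2 and 4 lay above all naive arrays, and exposed array 3 was the lowest of all 11.

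**Figure D3:**
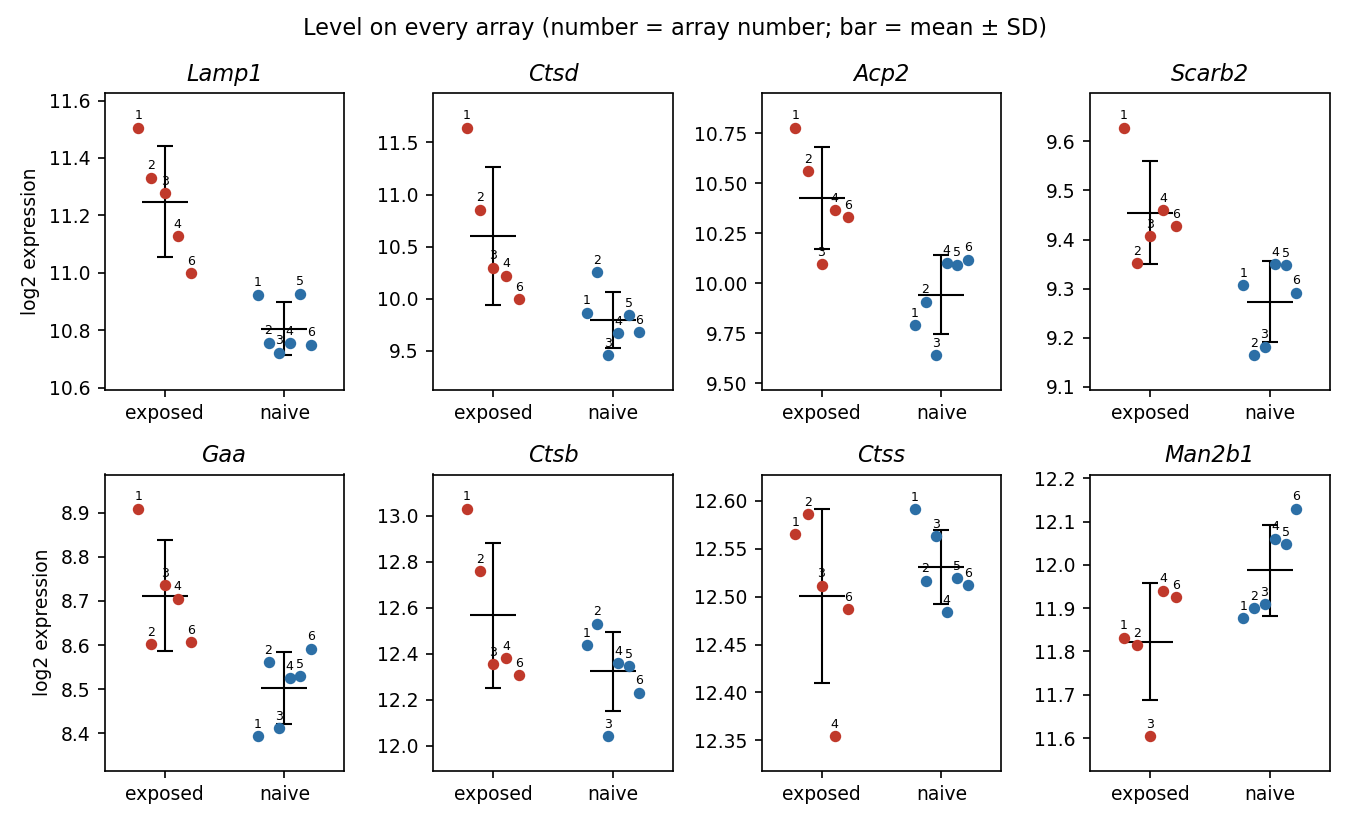
Log2 expression of 8 lysosomal genes on every array, exposed at the left and naive at the right of each panel, with array numbers beside the points and the mean ± SD as bars. The groups are apart for Lamp1, Scarb2 and Gaa and overlap for the other 5 genes.

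Of the 7 cysteine cathepsins 0 passed (limma, at the background of 1.42% of all genes). Cathepsin S, the enzyme that removes the invariant chain in dendritic cells, and cathepsin H, an aminopeptidase, hardly differed: Ctss by -0.03 with 95% limits of -0.12 to 0.06 and Ctsh by 0.01 with limits of -0.10 to 0.12. Cathepsin B and cathepsin L are endopeptidases that are plentiful in macrophages. Ctsb was at 13.03, 12.76, 12.35, 12.38 and 12.31 on exposed arrays 1, 2, 3, 4 and 6, against 12.04 to 12.53 with a median of 12.35 on naive arrays, and its difference of 0.24 ± 0.13 did not pass (adjusted p = 0.479). Ctsl was at 8.44, 7.85, 7.74, 7.32 and 7.18 on exposed arrays, against 7.20 to 7.68 with a median of 7.32 on naive arrays, and its difference of 0.34 ± 0.18 did not pass (adjusted p = 0.506). Both genes were highest on exposed arrays 1 and 2, while exposed arrays 4 and 6 lay among the naive ones or below them. The carboxypeptidase gene Ctsz differed by 0.07, and Ctsc, whose product activates granule proteases, by 0.05. Ctsk, the protease of bone-resorbing osteoclasts, was the only gene of the 31 below the dim mark, at 4.46 ± 0.19 in exposed and 4.47 ± 0.13 in naive cells.

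The other enzymes of protein digestion did not pass. Lgmn encodes legumain, an endopeptidase that cuts after asparagine and activates several cathepsins. It was at 11.02, 10.51, 10.09, 10.04 and 9.71 on exposed arrays 1, 2, 3, 4 and 6, against 9.81 to 10.16 with a median of 9.88 on naive arrays, a difference of 0.33 ± 0.18 (adjusted p = 0.516). Exposed arrays 1 and 2 lay above all naive arrays and exposed array 6 below all of them. Ifi30 encodes GILT, which reduces disulphide bonds of antigens, and differed by 0.09 with 95% limits of 0.01 to 0.17 (adjusted p = 0.363). Tpp1, a tripeptidyl peptidase, differed by 0.11, and Ctsa, the carboxypeptidase that shields Neu1 from degradation, by -0.05.

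Among the 6 glycosidases, 4 had positive differences and 0 passed. Gaa, the acid glucosidase that degrades lysosomal glycogen, was at 8.91, 8.60, 8.74, 8.71 and 8.61 on exposed arrays 1, 2, 3, 4 and 6, against 8.39 to 8.59 with a median of 8.53 on naive arrays. Every exposed array lay above the naive ones by a narrow margin, and the difference of 0.21 ± 0.06 did not pass (adjusted p = 0.155). Man2b1, the lysosomal alpha-mannosidase, had the lowest difference of the 31 genes, -0.16 ± 0.07 (adjusted p = 0.307), at 11.83, 11.81, 11.60, 11.94 and 11.92 on exposed arrays against 11.88 to 12.13 with a median of 11.98 on naive arrays. Exposed arrays 1, 2 and 3 lay below all naive arrays and arrays 4 and 6 among them. Hexa, a subunit of beta-hexosaminidase, differed by 0.14, the sialidase gene Neu1 by 0.13 and Gusb, beta-glucuronidase, by 0.06. Gla, alpha-galactosidase A, spread widely, from 8.49 to 9.67 on exposed arrays and from 8.84 to 9.37 on naive arrays, with a difference of -0.10 and 95% limits of -0.48 to 0.29.

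Acp2, the lysosomal acid phosphatase, was the gene nearest to the threshold after Lamp1. It was at 10.78, 10.56, 10.10, 10.36 and 10.33 on exposed arrays 1, 2, 3, 4 and 6, against 9.64 to 10.12 with a median of 10.00 on naive arrays. Exposed array 3 lay among the naive arrays and the other 4 above all of them. Acp2 averaged 10.43 ± 0.26 in exposed cells and 9.94 ± 0.20 in naive cells, a difference of 0.48 ± 0.12 (SE; adjusted p = 0.0626). Grn, which encodes progranulin, differed by 0.17 ± 0.08 (adjusted p = 0.451). The lipid-degrading genes differed little: Lipa, the acid lipase, by 0.01, Asah1, the acid ceramidase, by 0.02, and Psap, the precursor of the saposins, by 0.04. For cholesterol export, Npc2 differed by 0.13 with 95% limits of 0.00 to 0.25 and Npc1 by -0.07 with limits of -0.21 to 0.07. The second Npc1 probeset, a dim one, gave -0.03.

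The exposed arrays differed among themselves more than the naive arrays did. The SD was larger in exposed than in naive cells for 25 of the 31 genes (80.6%), against 52.3% of all genes. Set against each gene's naive mean, the median of the 31 genes was 0.33 on exposed array 1, 0.15 on array 2, 0.04 on array 3, 0.06 on array 4 and 0.02 on array 6, and between -0.08 and 0.04 on the naive arrays. Over all genes these array medians lay between -0.02 and 0.02. Exposed array 1 was the highest of all 11 arrays for 17 of the 31 genes (54.8%), against 11.98% of all genes. Without exposed array 1 the SD was larger in exposed cells for 20 of 31 genes (64.5%), against 47.3% of all genes. Differences that did not pass were much smaller without exposed array 1 for Ctsb (0.13), Ctsl (0.15), Lgmn (0.14), Ctse (0.18), Hexa (0.05), Npc2 (0.07), Neu1 (0.060) and Tpp1 (0.03).

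**Figure D4:**
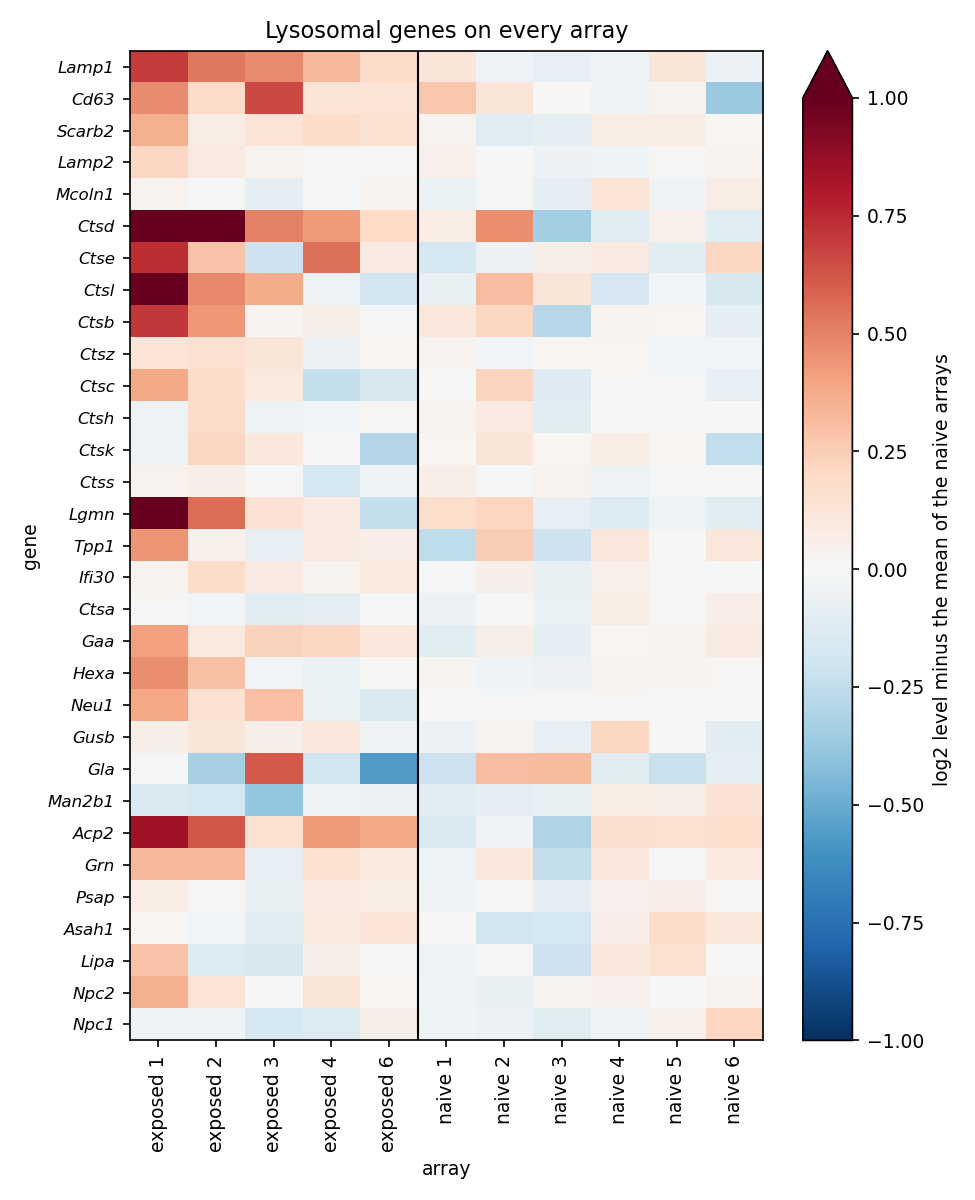
Log2 level of each of the 31 lysosomal genes (rows, grouped by role) on each array (columns), minus the gene's mean over the naive arrays. Exposed array 1 holds the highest value of all arrays in 17 genes, while Ctss, Ctsh and Mcoln1 stay near 0 on most arrays.

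Markers of red pulp macrophages, a resident spleen cell rich in lysosomes, were highest on the same exposed arrays. The mean of the 14 measured markers was 10.39, 9.46, 8.57, 8.45 and 8.35 on exposed arrays 1, 2, 3, 4 and 6, against 7.79 to 8.87 with a median of 8.34 on naive arrays. None of the 14 was below the dim mark, 13 had positive differences with a median of 0.69 over the 14, and 0 passed. The largest difference was that of Cd5l, a secreted protein of tissue macrophages, at 10.03, 9.22, 7.55, 7.48 and 7.15 on exposed arrays 1, 2, 3, 4 and 6, against 5.70 to 7.38 on naive arrays. Exposed arrays 1 to 4 lay above all naive arrays and exposed array 6 among them, and the 3.70-fold difference (1.89 ± 0.47, SE; adjusted p = 0.0693) did not pass. Cd5l did pass in a fit with a block for title numbers 1 to 3 and 4 to 6 (1.80, adjusted p = 0.0400), among genes above the dim mark (adjusted p = 0.0448) and without exposed array 6 (2.17, adjusted p = 0.0343). Of the defining markers, Spic averaged 9.85 in exposed and 9.18 in naive cells, Vcam1 10.33 and 9.73, and C1qa 9.48 and 8.53, while Adgre1 averaged 10.28 and 10.46. Exposed arrays 1 and 2, high for Ctsd, Ctsb, Ctsl and Lgmn, were thus also the arrays with the highest marker levels. In bulk samples a different number of macrophages and a different level per cell cannot be told apart.

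Among the naive arrays, which had no lymphoma, part of the list had its extremes on the same arrays as the markers. Naive array 2 had the highest and naive array 3 the lowest marker level, and the same arrays held the highest and lowest naive value of Ctsb, Ctsc, Ctsd, Ctsh and Ifi30. That is 5 of 31 genes (16.1%), against 3.10% of all genes. On exposed array 1, which had the highest marker level, Ctsb, Ctsc and Ctsd had their highest value of all arrays. Ctsh had its lowest exposed value there (11.43), and Ifi30 (12.85) lay below exposed arrays 2, 3 and 6. Ctsl and Lgmn had their highest naive value on array 2 but their lowest on naive array 4. Naive array 3 was the lowest naive array for 15 of the 31 genes (48.4%), against 15.9% of all genes, and naive array 2 the highest for 9 (29.0%), against 17.3%.

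With the mean of the 14 markers as a covariate, an alternative chosen after the data were seen, Lamp1 differed by 0.31 (adjusted p = 0.0417) and Ctsd by 0.28 (adjusted p = 0.0383), both past the threshold. Acp2 differed by 0.32 (adjusted p = 0.229), Ctsl by 0.006, Ctsb by -0.02 and Lgmn by -0.04 in the same fit, and the median over the 31 genes was 0.01. Without exposed arrays 1 and 2, also chosen after the data were seen, Lamp1 differed by 0.33 (adjusted p = 0.0796), Ctsd by 0.38 (adjusted p = 0.363) and Acp2 by 0.32 (adjusted p = 0.301), while Ctsb (0.02), Ctsl (0.05) and Lgmn (0.001) were close to 0. The marker mean itself averaged 9.04 in exposed and 8.34 in naive cells, so as a covariate it can take up part of the group difference. Exposed arrays 1 and 2 were the highest exposed arrays for Ctsd, Ctsb, Ctsl and Lgmn, so leaving them out had to lower these differences. The part of the macrophage markers in these results was not tested.

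**Figure D5:**
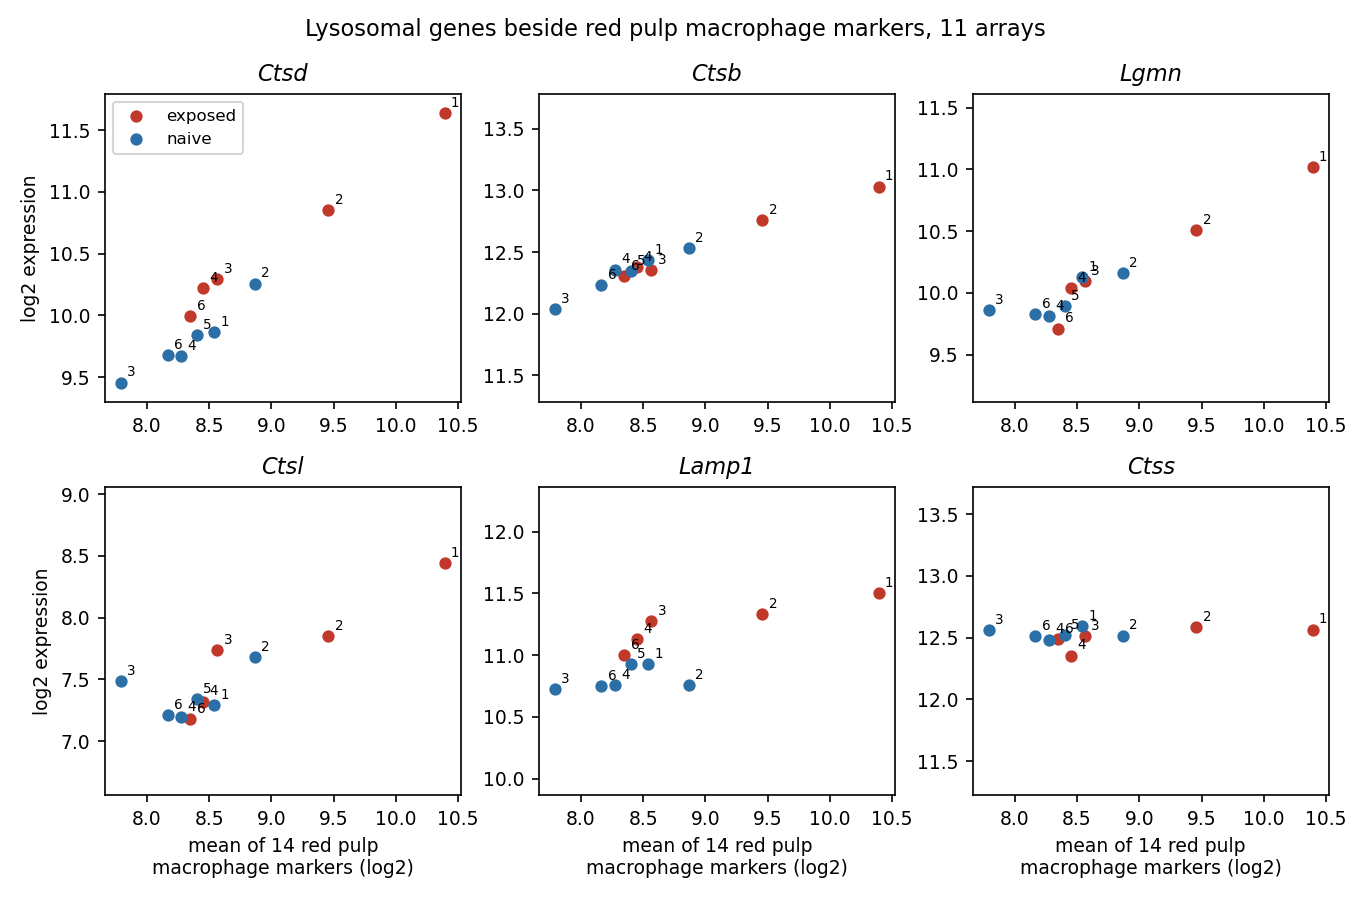
Log2 expression of 6 lysosomal genes against the mean log2 level of 14 red pulp macrophage markers on the 11 arrays (numbers are array numbers; every vertical axis spans the same range). Exposed arrays 1 and 2 have the highest marker levels; Ctss stays between 12.35 and 12.59 throughout, and Lamp1 is higher on every exposed array than on every naive one.

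Arrays numbered 1 to 3 and 4 to 6 in their titles differed in level within the groups for 3.3% of all genes (2 of the 31, Man2b1 and Asah1), and no label says what the numbers stand for. Every one of the 31 differences was larger, or less negative, in arrays 1 to 3 than in arrays 4 to 6, against 52.8% of all genes, though for Man2b1 (-0.15 in both) and Psap (0.05 and 0.04) hardly so. The median over the 31 genes was 0.19 for the lower numbers and 0.0008 for the higher ones, against 0.01 and 0.004 over all genes. Exposed arrays 1 and 2, with the high macrophage marker levels, both belong to the first set. Lamp1 differed by 0.57 and 0.25 in arrays 1 to 3 and 4 to 6, Acp2 by 0.70 and 0.24, Ctsd by 1.07 and 0.38, Gaa by 0.29 and 0.11, Scarb2 by 0.24 and 0.11, Ctsb by 0.38 and 0.03, and Lgmn by 0.49 and 0.03. Other genes had opposite signs in the sets, among them Neu1 (0.28 and -0.11), Ctsc (0.19 and -0.17) and Hexa (0.27 and -0.05). In arrays 4 to 6 the difference was positive for 17 of the 31 genes (54.8%), against 51.4% of all genes. The interaction of group and number set passed for 0 of the 31 genes and 0 of all genes (limma), with 6 of the 31 and 4.25% of all genes at an unadjusted p under 0.05 (0.0% of all genes after adjustment). That count of 6 was 3 without the trend and ranged with each array left out from 1 (without naive array 3) to 11 (without exposed array 3). With the number set as a block, Lamp1 (0.43, adjusted p = 0.00918) and Acp2 (0.50, adjusted p = 0.0395) passed, 2 of 31 genes or 6.45%, against 2.78% of all genes.

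The rest of the lysosomal machinery was examined through 6 further lists. Of the 16 measured subunits and accessory proteins of the proton pump that acidifies lysosomes, 0 passed and 13 had positive differences with a median of 0.06, and the largest was Atp6v1b2, at 10.37 in exposed and 10.19 in naive cells (0.18, adjusted p = 0.294). Of 31 other hydrolases 1 rose and 0 fell (1.42% of all genes passed), with a median of 0.05. That gene was Aoah, the acyloxyacyl hydrolase that inactivates lipopolysaccharide, at 6.45 ± 0.27 in exposed and 5.40 ± 0.28 in naive cells (1.05 ± 0.14, SE; adjusted p = 0.00418). Its exposed arrays (6.11 to 6.76) lay above all naive arrays (4.94 to 5.82). The naive mean of Aoah was below the dim mark of 5.60, and among the naive arrays only array 2, at 5.82, lay above that mark. The rise was therefore measured from a dim naive level. Aoah also passed without exposed arrays 1 and 2 (0.87, adjusted p = 0.0375).

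Of 29 other membrane proteins and transporters 0 passed, with a median of -0.01, and the largest difference was that of Gpnmb, a glycoprotein of macrophage lysosomes (0.44, adjusted p = 0.0833). Of 27 genes that sort enzymes to lysosomes 0 passed, with a median of -0.0002, and the largest difference was that of Rab27a, a small GTPase (0.17, adjusted p = 0.246). The background of these counts is 1.42%. Atp6v1b2 passed once number sets were blocked (0.20, adjusted p = 0.0395) and Gpnmb without exposed array 6 (0.52, adjusted p = 0.0388).

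The 15 measured inhibitors of lysosomal proteases, 6 of them below the dim mark, held 1 gene that rose and 0 that fell. Over all genes 1.42% passed, and 2.39% of the genes above the dim mark. Cst7 encodes cystatin F, an inhibitor of cysteine cathepsins in immune cells, and was at 7.77 ± 0.17 in exposed and 7.31 ± 0.13 in naive cells (0.46 ± 0.08, SE; adjusted p = 0.0183), with exposed arrays at 7.51 to 7.93 and naive arrays at 7.10 to 7.45. Both number sets gave much the same difference for Cst7 (0.45 for the lower numbers, 0.48 for the higher), and it was 0.57 with the macrophage marker mean as a covariate (adjusted p = 0.00739). Without exposed array 2 it was 0.44 (adjusted p = 0.0598). Of the 18 regulators 1 rose and 1 fell, against the same background of 1.42% of all genes. Tfec, which shares its binding motif with Tfeb, was at 6.84 ± 0.35 in exposed and 5.81 ± 0.36 in naive cells (1.03 ± 0.18, SE; adjusted p = 0.0171), and it missed the threshold with the marker mean as a covariate (0.78, adjusted p = 0.0509) and without exposed arrays 1 and 2 (0.92, adjusted p = 0.0903). Fnip1, a partner of folliculin in nutrient signalling at the lysosome, fell to 8.01 ± 0.08 in exposed cells, against 8.26 ± 0.07 in naive cells (-0.25 ± 0.06, SE; adjusted p = 0.0404). Fnip1 still passed when exposed array 1 or naive array 4 was dropped, but not when any of the other 9 was (highest adjusted p = 0.111, exposed array 2 dropped), nor without exposed arrays 1 and 2 together (adjusted p = 0.0984).

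Markers of the sorted cells were high on both sides. Itgax, the gene of the CD11c protein by which the cells were sorted, averaged 11.98 in exposed and 12.11 in naive cells, Flt3, a growth factor receptor of dendritic cells, 11.44 and 11.51, and Zbtb46, a transcription factor of conventional dendritic cells, 9.08 and 9.20. Their mean level over 6 dendritic cell markers ran from 11.72 to 11.90 on exposed and from 11.83 to 11.94 on naive arrays, with 0 of 6 positive and 0 passing. Markers of type 2 conventional dendritic cells had means of 9.36 to 9.67 on exposed and 9.65 to 9.87 on naive arrays, and Cd209a (-1.02, adjusted p = 0.00345) and Clec4a4 (-0.43, adjusted p = 0.0250) fell among 9, while 0 of 8 type 1 markers passed and Irf8 differed most (0.17). Of 8 plasmacytoid markers Cd300c fell (-0.41, adjusted p = 0.0338), but 4 of the 8 differences were positive, with a median of 0.05. The largest of them, a positive one of 0.80, did not pass. Plasmacytoid marker means ran from 7.68 to 8.09 on exposed and from 7.64 to 8.04 on naive arrays. Of 7 T and NK cell markers, 6 of them below the dim mark, Ncr1 rose (0.46, adjusted p = 0.0289). Over all genes 1.42% passed, and 2.39% of the genes above the dim mark. Among the 8 B cell markers (6.89 to 7.28 on exposed and 6.88 to 7.15 on naive arrays), the 7 monocyte markers (6.37 to 6.65 and 6.26 to 6.97), the 10 neutrophil markers (8 below the dim mark) and the 2 measured erythroid markers 0 passed; Cd79a differed by 0.36, Cd3e by 0.25, Ly6c2 by 0.33, Ngp by 0.19 and Klf1 by -0.06. Dropping a single array ended the call of Clec4a4 in 7 of 11 cases, of Cd300c in 8 and of Ncr1 in 8, each with its highest adjusted p without exposed array 2 (0.0631, 0.0977 and 0.0822). Without exposed arrays 1 and 2 together none of these 3 genes passed (adjusted p = 0.0931, 0.0904 and 0.140). The part of these markers in the lysosomal differences was not tested.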

How the data were processed

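The values are log2 expression levels deposited by the authors, 1 per probeset and 1-colour Affymetrix array, made with RMA per the submitters' processing notes (version and genome build not given in the sources used here). RMA corrects background and normalises between arrays, so small differences can move with the scaling. Of 41801 probesets 7329 are blank. Probesets naming 1 gene gave 22180 genes, and dim genes were kept. The number of arrays limits the precision.

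Differences, exposed minus naive, were fitted with limma 3.58.1 in R 4.3.3 (lmFit, eBayes with trend = TRUE) over all genes, with Benjamini-Hochberg adjustment and a threshold of 0.05. SE stands for the moderated standard error, SD for the spread between arrays of a group. On simulated data of this design with 22180 genes, 100 of 100 changes of 2-fold and 76 of 100 changes of 0.5 (log2) were found, with 4 false calls among 180. The simulated noise was independent between genes, equal in spread in both groups and without number sets, unlike the real arrays. These figures therefore do not show how often the test errs on the real arrays.

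Named genes are all 31 members and, of each other list, up to 3 called genes per direction or else the largest difference, plus defining markers. The members and lists were chosen with earlier results of these data known. Titles number the exposed arrays 1, 2, 3, 4 and 6 and the naive arrays 1 to 6, while another label gives the last exposed array the number 5. The alternatives were other variance models, array weights, rescaling, a filter on dim genes, averaged probesets, blocks by number or number set, and each array left out. The macrophage marker covariate and the fit without exposed arrays 1 and 2 were added after the data were seen.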

Additional observations from a re-analysis of the deposited data

Results flagged for a closer look

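The highest and the lowest array of each group were checked for a wide gap to the others in the 31 genes, which made 62 groups of arrays, and 2 stood out. Chance marks about 1 in 20 such groups. For Ctsh, exposed array 2 was at 11.66, with the next exposed array at 11.49 and the lowest at 11.43. For Ctsk, which lay below the dim mark, naive array 6 was at 4.22, with the next naive array at 4.49 and the highest at 4.59.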

How the results depend on the processing

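The count of 1 changed lysosomal gene was 2 after quantile normalization, among genes above the dim mark, with the number set as a block and with the macrophage marker mean as a covariate (Acp2 joining in the first 3, Ctsd in the last), and 0 without exposed arrays 1 and 2. With each array left out it lay between 0 and 2, at 0 without exposed array 2 and at 2 without exposed array 3. The count of all 316 changed genes was 617 with the number set as a block, 182 with a replicate block by the replicate label, 341 with a replicate block by the title number, 207 with the marker covariate, 99 without exposed arrays 1 and 2, and 104 to 395 with each array left out, lowest without exposed array 2. Neither replicate block changed a call among the 31 genes. Among other genes, the block by the replicate label ended the calls of Tfec (adjusted p = 0.0631), Cst7 (0.0549), Fnip1 (0.0737), Clec4a4 (0.0858), Cd300c (0.0685) and Ncr1 (0.0631), the block by title number those of Fnip1 (0.0601), Clec4a4 (0.0504), Cd300c (0.0502) and Ncr1 (0.0680), and Cd5l passed under both (0.0494 and 0.0240). Deviations from the group means of arrays with the same title number had correlations of 0.0880 to 0.231, and in 2 of 5 such pairs the exposed array's best match was its own number, so the arrays were not treated as pairs. A shift to a common 75th percentile made 44.0% of all calls rises, against 61.7% in the values as deposited, and quantile normalization 53.4%. The list's median of 0.09 was 0.050 after the 75th percentile shift, 0.012 with the covariate, 0.029 without exposed arrays 1 and 2, and 0.060 to 0.12 with each array left out. The count of genes with an interaction was 0 to 7 with each array left out, at 7 without exposed array 3.

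Differences of single genes turned, among them the larger ones of Lgmn, Ctsb and Ly6c2. With the marker covariate these were Ctsb (-0.023), Ctsc (-0.13), Ctsh (-0.016), Lgmn (-0.040), Hexa (-0.018), Lipa (-0.081), Tpp1 (-0.024) and Ly6c2 (-0.078), and without exposed arrays 1 and 2 they were Ctsc (-0.099), Ctsh (-0.022), Hexa (-0.028), Lipa (-0.035) and Ly6c2 (-0.064). Median centring turned Ctsh (-0.0023) and Lipa (-0.0067), the 75th percentile shift Ctsh (-0.023), Lipa (-0.027) and Asah1 (-0.015), array weights Lipa (-0.022), and the replicate block by the replicate label Mcoln1 (0.0056). With each array left out the ranges of genes that turned were -0.028 to 0.13 for Ctsc, -0.029 to 0.031 for Ctsh, -0.061 to 0.065 for Ctsk, -0.052 to 0.0064 for Ctss, -0.27 to 0.019 for Gla, -0.061 to 0.051 for Lipa, -0.015 to 0.058 for Asah1, -0.028 to 0.017 for Mcoln1 and -0.14 to 0.0014 for Klf1. The causes were not tested. Lamp1, Ctsd and Acp2 kept positive differences in every alternative run, as did most other genes of the list with positive differences, Scarb2 and Gaa among them.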
